A study of Mus musculus with 367 samples.

Results

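A set of Wnt pathway genes was followed through single cells of healing mouse skin. It held the ligand Wnt5a, the receptor Fzd1, the secreted antagonists Sfrp1, Sfrp2, Sfrp4, Dkk2, Dkk3 and Wif1, and Axin2 and Lef1, which report on the β-catenin branch of the pathway. The members were taken as a fixed list of 10 genes out of 50600 gene identifiers, and all 10 were present in each of the 7 expression tables. The cells carried Sm22-Cre and a tdTomato reporter on a mixed background, so that the promoter of Tagln, a gene of contractile cells, had switched on tdTomato in them or in their ancestors. Square excisional wounds of 1.5 cm were made on the backs of mice aged 3-8 weeks, and viable tdTomato-high cells were sorted and captured in a C1 microfluidic chip at post-wounding day (PWD) 12, 15 or 21. There were 3 captures at PWD12, 2 at PWD15 and 2 at PWD21, with 367 cells in all. For the cells titled as the third PWD12 capture another label names the table of the second, so the titles were followed and the table that no label names was taken as that of PWD12 replicate 3. Every group carried the same alleles and the same wound, and no unwounded skin and no unsorted cells were among these samples. Wound tissue of 2-3 mice was collected per time point and is described as pooled, and nothing states that the captures of a day came from different mice. The p-values below therefore measure the spread between captures, which may be technical.

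Wnt proteins are secreted with the help of the carrier Wls, bind receptors of the Frizzled family on neighbouring cells, and act either through β-catenin and the TCF/LEF transcription factors or through branches that do not need β-catenin. Wnt5a is best known for the latter. Sfrp proteins and Wif1 bind Wnt proteins outside the cell, while Dkk2 binds the co-receptors Lrp5 and Lrp6; Dkk3 is a divergent relative that is not a typical inhibitor. In skin the pathway is known for its part in hair follicle formation and in the behaviour of dermal fibroblasts, and new hair follicles can form in the centre of large wounds.

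Values are FPKM, that is fragments scaled by the length of the transcript and by the mapped total of the cell, so that levels can be compared between genes per length. After cells of low depth, of high gene number and of high mitochondrial share were left out, 292 cells remained. Their estimated depth ran from 172878 to 7864271 fragments with a median of 1463920, and this limits how small a level could be seen. Cells were assigned to kinds by 3 genes that are not members. Matrix fibroblasts had Col1a1, a collagen chain, at 1000 FPKM or more with the pericyte gene Rgs5 under 100 FPKM and the myeloid adaptor Tyrobp under 50 FPKM. Mural cells had Rgs5 at 500 FPKM or more with Tyrobp under 50 FPKM, and myeloid cells had Tyrobp at 500 FPKM or more. This gave 198 matrix fibroblasts, 57 mural cells and 26 myeloid cells, and 11 cells met none of the limits. Halving or doubling all limits changed the kind of 7 or 9 cells.

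The kinds carried the markers of their names. Notch3, a receptor of mural cells, had a mean of 26.2 FPKM in mural cells and 0.0662 FPKM in matrix fibroblasts. Lyz2, lysozyme, was detected in 26 of 26 myeloid cells. The summed level of 5 matrix fibroblast markers (Col1a2, Col3a1, Dcn, Lum and Pdgfra) ran from 16200 to 32000 FPKM over the captures in matrix fibroblasts, but from 3500 to 12600 FPKM in mural cells and from 67.9 to 10600 FPKM in myeloid cells. Thus some cells of both other kinds also held fibroblast RNA. In matrix fibroblasts of any capture, markers of endothelial cells summed to at most 0.39 FPKM and those of T cells to at most 0.137 FPKM. The sums reached 55.2 FPKM for 6 myeloid markers, 38 FPKM for 3 Schwann cell markers, 17.1 FPKM for 2 melanocyte markers, 15.2 FPKM for 3 keratinocyte markers and 12.5 FPKM for 5 mural markers. The keratinocyte marker Krt5 and the melanocyte marker Dct were listed at 0 in all matrix fibroblasts. The part of these in the results below was not tested.

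The promoter sequences of 2 members are shown because Axin2 and Lef1 are the members read as outputs of TCF/LEF. The letters CTTTGAA, with A or T allowed at each of the last 2 positions, were searched on both strands in the 250 bases before each start in the RefSeq promoter table (GRCm38.p6), and 14.8% of 32851 promoters held a match. The table had 9 entries for 6 members (Sfrp2, Lef1, Dkk2, Fzd1, Wif1 and Axin2), and 1 of these entries matched. Lef1 had 4 entries, of which the 3 nearer the start of the gene held no match. The entry shown, chosen because it matched, was the start of Lef1 at chr3:131156044-131156293 on the plus strand, inside the gene, with the match in capitals from base 104. The Axin2 stretch, chr11:108920099-108920348 on the plus strand, had no match and 24 CG pairs, against a median of 6 over all promoters.
Lef1: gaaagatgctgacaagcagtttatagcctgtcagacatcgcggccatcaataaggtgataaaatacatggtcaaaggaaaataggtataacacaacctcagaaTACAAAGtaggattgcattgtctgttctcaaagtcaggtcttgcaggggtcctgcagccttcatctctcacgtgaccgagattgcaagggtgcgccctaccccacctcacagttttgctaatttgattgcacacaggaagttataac
Axin2: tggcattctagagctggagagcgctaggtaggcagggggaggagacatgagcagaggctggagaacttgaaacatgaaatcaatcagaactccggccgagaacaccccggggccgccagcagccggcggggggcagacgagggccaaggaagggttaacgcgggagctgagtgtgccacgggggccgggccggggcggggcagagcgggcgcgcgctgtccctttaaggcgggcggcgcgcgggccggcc
A match of these letters is a description of the window and not a binding site.

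In matrix fibroblasts the members fell into broadly detected and rare genes. Sfrp2, Wnt5a, Dkk3 and Fzd1 reached 1 FPKM or more in 83.3%, 81.3%, 77.8% and 64.1% of the 198 cells. Sfrp1 (28.8%), Axin2 (26.8%), Dkk2 (12.1%) and Sfrp4 (9.60%) reached it in a minority, and Lef1 (4.04%) and Wif1 (1.01%) hardly at all. All of the 4 broad members were at 1 FPKM or more together in 74 of the 198 cells (37.4%). By mean over the 7 captures, Sfrp2 stood highest at 194.6 ± 60.3 FPKM (SD), followed by Sfrp4 at 99.6 ± 150 FPKM, Dkk3 at 51.4 ± 11.3 FPKM, Wnt5a at 47.8 ± 20.3 FPKM and Fzd1 at 38.1 ± 12.2 FPKM. The SD of Sfrp4 exceeds its mean, and Wnt5a lies within 1 SD of both Dkk3 and Fzd1, while the gap between Dkk3 and Fzd1 is larger than the SD of either. Dkk2 (11.4 ± 13.8 FPKM), Sfrp1 (11.1 ± 7.61 FPKM) and Axin2 (7.93 ± 3.27 FPKM) formed a lower group, with gaps smaller than the SD of Dkk2 or of Sfrp1. Lef1 (0.628 ± 1.27 FPKM) and Wif1 (0.114 ± 0.189 FPKM) were at the bottom of the order.

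**Figure D1:**
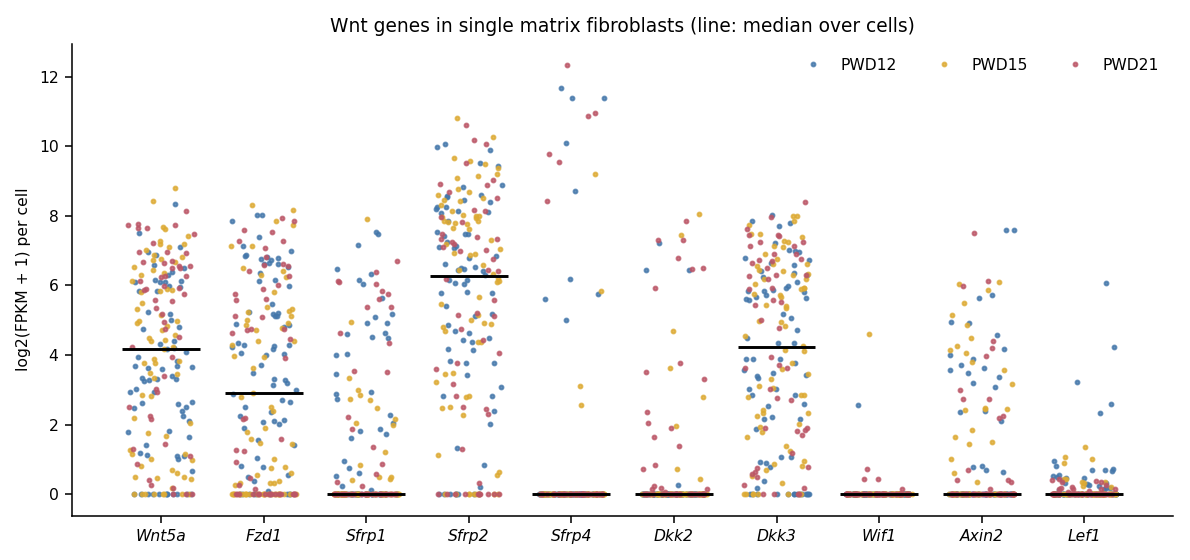
Log2(FPKM + 1) of each Wnt gene in the 198 single matrix fibroblasts, coloured by day, with the median over cells as a line. Sfrp2, Dkk3, Wnt5a and Fzd1 have medians above 0, while Sfrp4 is at 0 in most cells and at 1000 FPKM or more in 7.

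Wnt5a (ENSMUSG00000021994, chr14:28504750-28527448, plus strand, GRCm38) was the main ligand of these fibroblasts. Its capture means were 33.7, 24.1 and 34.2 FPKM at PWD12, 55.9 and 42.5 FPKM at PWD15, and 82.95 and 61.4 FPKM at PWD21. The 3 days did not overlap, and every capture of a later day was above every capture of an earlier one. Of the 13552 genes that averaged 1 FPKM or more, 0.487% were ordered upward by day without overlap in this way, and Wnt5a was the 1 member among the 8 tested. The difference of PWD21 from PWD12 was 1.21 ± 0.49 (SE) on the log2(mean FPKM + 1) scale, a 2.31-fold higher level, with an unadjusted p of 0.0319 and an adjusted p of 0.671 (limma). It did not pass the test. The share of cells with Wnt5a at 1 FPKM or more was 77.4%, 92.3% and 76.5% at PWD12, 72% and 86.4% at PWD15, and 88.9% and 85.3% at PWD21, so the shares of the days overlapped while the mean levels did not. Markers also moved with day in the same cells. The summed level of 2 contractile genes was 390 to 919 FPKM in the PWD12 captures and 107 to 235 FPKM in the later ones, and that of the 5 matrix markers was 16200 to 20100 FPKM and 24400 to 32000 FPKM. Their part in the values of Wnt5a was not tested.

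No other Wnt protein came near this level. Of the 22 other ligands of the pathway list (Wnt and R-spondin genes), 7 averaged 1 FPKM or more and 5 were listed at 0 in every matrix fibroblast. The highest were Rspo3 at 11.1 ± 7.96 FPKM and Rspo4 at 7.78 ± 6.46 FPKM, secreted proteins that strengthen Wnt signals through the Lgr receptors. Wnt5b, the closest relative of Wnt5a, was at 5.91 ± 5.96 FPKM and reached 1 FPKM in 9.60% of cells. Wls, which every secreted Wnt protein needs as a carrier, was at 251 ± 42.7 FPKM and detected in 97.5% of cells, whereas Porcn, which attaches the lipid to Wnt proteins, was at 12.1 ± 9.85 FPKM and detected in 19.2%.

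Fzd1 (ENSMUSG00000044674, chr5:4753839-4758035, minus strand), a Frizzled receptor, averaged 41.9, 33.8 and 53.3 FPKM at PWD12, 35.9 and 17.0 FPKM at PWD15, and 33.8 and 50.9 FPKM at PWD21. The day groups overlapped in mean level. The share of cells at 1 FPKM or more was 80.6%, 80.8% and 76.5% at PWD12 but 54% and 45.5% at PWD15 and 50% and 64.7% at PWD21. All PWD12 captures were thus above all later ones in share. That order was common, since 12.2% of tested genes had it, and 1 of 8 members is near that background. In a fit of the shares, Fzd1 at PWD15 differed from PWD12 by -29.6 ± 7.59 percentage points with an adjusted p of 0.306 (limma), so this did not pass either. Matrix fibroblasts of PWD15 had a median of 973933 estimated fragments against 1646537 at PWD12 and 2253179 at PWD21, and the part of depth in these shares was not tested.

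Among the other receptors and co-receptors, Lgr4 (51.9 ± 28.4 FPKM) and Ryk (32.7 ± 10.2 FPKM) were highest, with Fzd1 between them. Lgr4 is a receptor for R-spondins and Ryk binds Wnt5a. Fzd2 was the next Frizzled gene at 15.3 ± 8.11 FPKM. Of the co-receptors that Dkk2 binds, Lrp6 was at 15.8 ± 24.4 FPKM and Lrp5 at 1.57 ± 1.03 FPKM. Ror2, a receptor used by Wnt5a, was at 6.35 ± 2.62 FPKM.

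**Figure D2:**
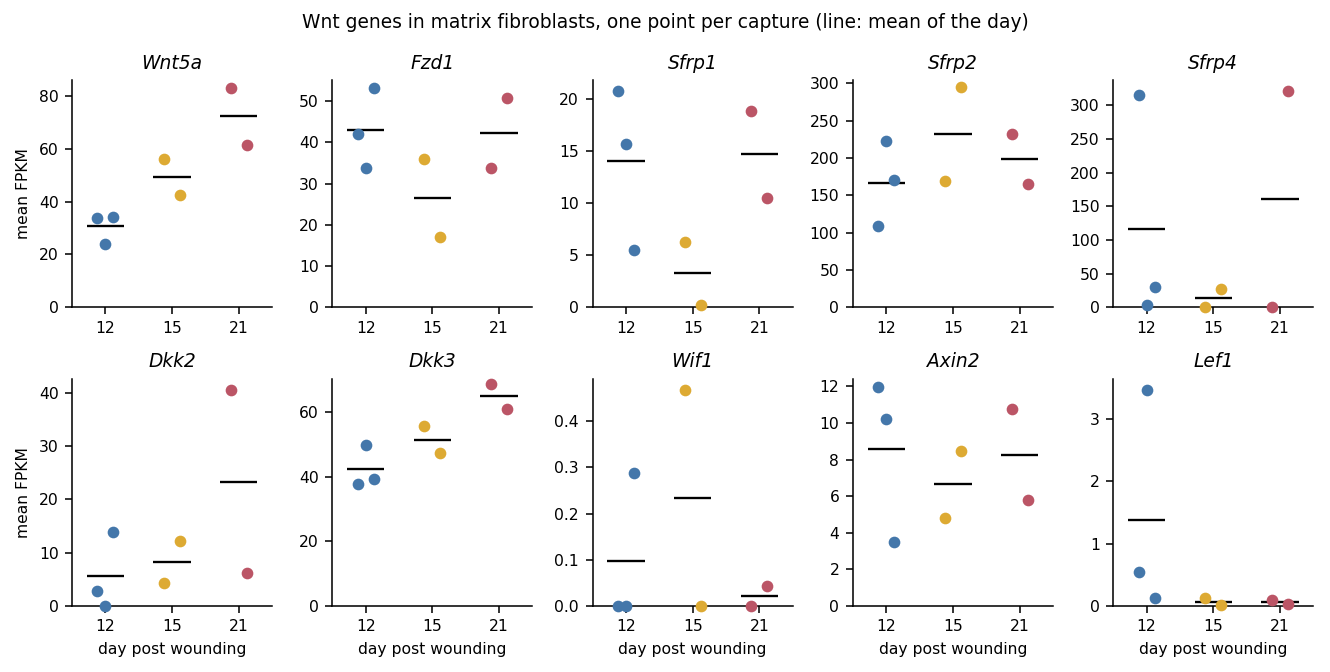
Mean FPKM of each Wnt gene over the matrix fibroblasts of each capture, by day post wounding, with the mean of the day as a line and a separate linear axis for each gene. The capture means of Wnt5a lie between 24.1 and 82.95 FPKM and are ordered by day without overlap, and the single high captures of Sfrp4, Dkk2 and Lef1 set their day means.

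The secreted antagonists were led by Sfrp2 (ENSMUSG00000027996, chr3:83766321-83774316, plus strand), a soluble protein with a Frizzled-like domain. Its capture means were 108.3, 222 and 170.1 FPKM at PWD12, 169 and 295 FPKM at PWD15, and 232 and 165 FPKM at PWD21. The days overlapped, and the differences from PWD12 were 0.48 ± 0.44 at PWD15 and 0.29 ± 0.44 at PWD21 (log2, SE). Sfrp2 was the highest of the 6 antagonists in 113 of the 193 matrix fibroblasts that held any, and it was at 1000 FPKM or more in 7 cells.

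Dkk3 (ENSMUSG00000030772, chr7:112116017-112159057, minus strand) was the second broad antagonist gene and led in 50 of those 193 cells. Its means were 37.7, 49.8 and 39.5 FPKM at PWD12, 55.7 and 47.4 FPKM at PWD15, and 68.9 and 61.01 FPKM at PWD21. The difference of PWD21 from PWD12 was 0.61 ± 0.46 (log2, SE) with an adjusted p of 0.808 (limma), and it did not pass the test. Dkk3 varied least of all members between captures in proportion to its mean.

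Sfrp4 (ENSMUSG00000021319, chr13:19623104-19632994, plus strand) had the opposite shape, with few cells at very high levels. It was detected in 19 of 198 matrix fibroblasts, and its median in those cells was 585 FPKM. The highest cell, in PWD21 replicate 2, had 5124 FPKM, and 3 cells held 50.6% of all Sfrp4 signal of matrix fibroblasts. Of the 7 cells at 1000 FPKM or more, 4 were in PWD12 replicate 1 and 3 in PWD21 replicate 2. The capture means followed these cells, with 315.6, 2.76 and 29.7 FPKM at PWD12, 1.13 and 27.2 FPKM at PWD15, and 0 and 320.9 FPKM at PWD21. Captures of the same day thus differed more than the days did. In PWD21 replicate 1 Sfrp4 was listed at 0 in all 18 cells, a count of 0 that allows a share of up to 16.7%. Where Sfrp4 was present it was the leading antagonist in 12 of 19 cells.

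Sfrp1 (ENSMUSG00000031548, chr8:23411502-23449632, plus strand) averaged 20.8, 15.7 and 5.53 FPKM at PWD12, 6.28 and 0.257 FPKM at PWD15, and 18.8 and 10.5 FPKM at PWD21. PWD15 replicate 2 was the lowest capture, with 1 of 22 cells positive, and in PWD15 replicate 1 a single cell at 238 FPKM made up 75.9% of the signal. Without that cell the mean of the capture was 1.54 FPKM. The difference of PWD15 from PWD12 was -2.14 ± 0.95 with an unadjusted p of 0.0462 and an adjusted p of 0.856 (limma), and that of PWD21 from PWD15 was 2.32 ± 1.04 with an adjusted p of 0.887. Neither passed the test. The first was -0.87 without PWD15 replicate 2 and -3.41 without PWD15 replicate 1, and the second was 1.05 and 3.59.

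Dkk2 (ENSMUSG00000028031, chr3:132085292-132180304, plus strand), an antagonist that acts at Lrp5 and Lrp6, had its highest shares of positive cells at PWD21. The share of matrix fibroblasts at 1 FPKM or more was 3.23%, 0% and 11.8% at PWD12, 10% and 4.55% at PWD15, and 33.3% and 26.5% at PWD21. Both PWD21 captures stood above the other 5, an order shown by 2.42% of tested genes. In counts this was 15 of 52 cells at PWD21 against 3 of 74 at PWD12 and 6 of 72 at PWD15. The fit of the shares gave a difference of 24.9 ± 5.29 percentage points for PWD21 against PWD12, with an unadjusted p of 0.00138 and an adjusted p of 0.366 (limma). It did not pass the test over all genes. The depth of matrix fibroblasts also differed between days, as given for Fzd1, and its part in these shares was not tested.

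The mean level of Dkk2 was less even. It was 2.77, 0 and 13.8 FPKM at PWD12, 4.35 and 12.2 FPKM at PWD15, and 40.6 and 6.09 FPKM at PWD21, so that the days overlapped. The difference of PWD21 from PWD12 was 2.17 ± 1.21 on the log2 scale with an adjusted p of 0.753 (limma), and without PWD21 replicate 1 the sign of the difference from PWD15 turned.

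Wif1 (ENSMUSG00000020218, chr10:121033960-121100650, plus strand), which binds Wnt proteins directly, was detected in 6 of 198 matrix fibroblasts and reached 1 FPKM in 2, once at PWD12 and once at PWD15. Its mean was under 1 FPKM in the 7 captures and it was not tested between days. Of the 8 other secreted antagonists on the list, Frzb (4.16 ± 7.81 FPKM) and Draxin (1.76 ± 2.18 FPKM) averaged 1 FPKM or more, while Dkk1, Dkk4 and Sfrp5 were under 0.1 FPKM and Sost and Notum were listed at 0. A matrix fibroblast usually held more than 1 of the 6 member antagonists. This count includes Dkk3, which is not a typical inhibitor and which, with Sfrp2, was 1 of the only 2 broad ones (77.8% and 83.3% of cells). Counting the 6 member antagonists at 1 FPKM or more, 92 of 198 cells held 2 of them, 58 held 3, 33 held 1 and 8 held none.

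Axin2 (ENSMUSG00000000142, chr11:108920349-108950783, plus strand), a feedback inhibitor that β-catenin induces and a common readout of the pathway, averaged 12.0, 10.2 and 3.47 FPKM at PWD12, 4.82 and 8.47 FPKM at PWD15, and 10.8 and 5.79 FPKM at PWD21. It reached 1 FPKM in 41.9%, 15.4% and 17.6% of cells at PWD12, 30% and 31.8% at PWD15, and 38.9% and 11.8% at PWD21. Captures of the same day differed as widely as captures of different days. In PWD21 replicate 2 a single cell carried 91.0% of the Axin2 signal. The differences from PWD12 were -0.22 ± 0.82 at PWD15 and 0.04 ± 0.82 at PWD21 (log2, SE).

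Lef1 (ENSMUSG00000027985, chr3:131110471-131224356, plus strand), a transcription factor that works with β-catenin, was detected in 51 of 198 matrix fibroblasts but reached 1 FPKM in only 8. Its median in cells with a value was 0.30 FPKM, which is near the worth of 1 fragment of a transcript of 3 kb (0.164 to 0.38 FPKM at the median depths of the days). All 8 cells were at PWD12 (5 cells) or PWD15 (3 cells), and the highest, 66.2 FPKM, was in PWD12 replicate 2. At PWD21 it reached 1 FPKM in 0 of 52 cells, a count that allows a share of up to 5.77%. The related factor Tcf7l2 was at 198 ± 96.2 FPKM and β-catenin itself (Ctnnb1) at 175 ± 55.2 FPKM.

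**Figure D3:**
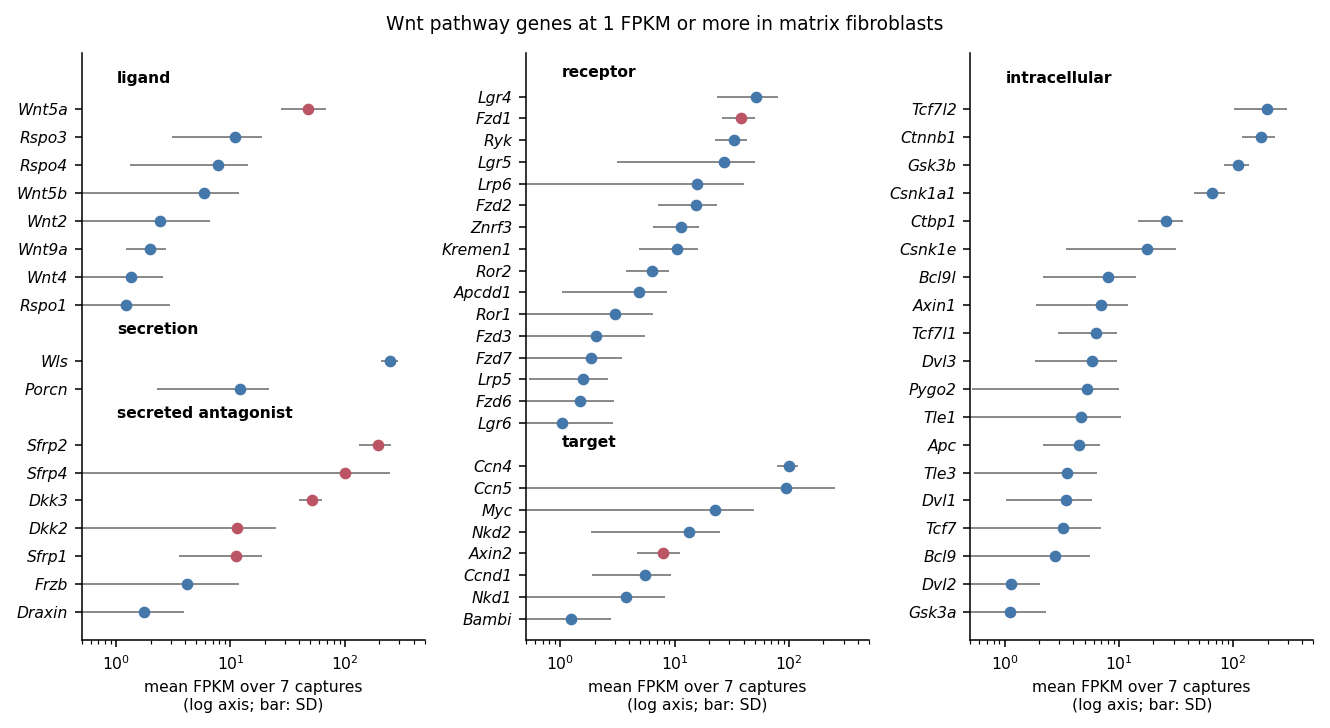
Mean FPKM over the 7 captures in matrix fibroblasts on a log axis for the listed Wnt pathway genes at 1 FPKM or more, grouped by role, with members in red, other genes in blue and the SD over captures as a bar that is cut off at 0.5 FPKM. Wnt5a leads the ligands and Sfrp2 the antagonists, while Axin2 lies below the targets Ccn4, Ccn5, Myc and Nkd2.

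Of the 8 other target genes on the list, 4 averaged more than Axin2 (Ccn4, Ccn5, Myc and Nkd2) and 4 less, namely Ccnd1 (5.54 FPKM), Nkd1 (3.73 FPKM), Bambi (1.24 FPKM) and Sp5, which was detected in 1 cell. Ccn4 was at 99.0 ± 21.0 FPKM and reached 1 FPKM in 80.3% of matrix fibroblasts, and Ccn5 was at 94.3 ± 160 FPKM in 25.3%. Both are matricellular proteins that Wnt signals can induce. Between days, 0 of the 8 members tested and 0 of the 52 other pathway genes tested passed the threshold in any of the 3 comparisons. The background was as low, since 0% of 13552 genes passed for PWD15 against PWD12, 0.00738% for PWD21 against PWD12 and 0% for PWD21 against PWD15. At an unadjusted p under 0.05 there were 791, 968 and 745 genes. The median difference of the 8 members was 0.03, 0.23 and 0.63 in the same order, beside -0.10, -0.19 and -0.05 over all genes. The 3 comparisons share captures. In simulated data these fits recovered 0% of genes changed by 2 on the log2 scale, and 36.5% to 46% of those changed by 4. A member that did not pass is therefore not shown to be unchanged.

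The members showed little relation to each other from cell to cell. Over the 21 pairs of the 7 members detected in at least 20% of matrix fibroblasts, the mean of the within-capture Spearman coefficients ran from -0.17 to 0.23. The highest pair was Sfrp2 with Dkk3 at 0.23, between 0.15 and 0.34 in the 7 captures. Among 9420 genes, the most alike to Sfrp2 were Lum (0.37) and Col3a1 (0.36), both matrix genes, and Ubtd2 (0.31). For Dkk3 they were Sorcs2 (0.39), Adamts2 (0.31) and Phf10 (0.31), and for Wnt5a Sema3a (0.33), Lap3 (0.32) and Ssna1 (0.31). For Sfrp1 they were Ace (0.37), Bhlhe41 (0.37) and Aoc3 (0.36), for Fzd1 Dcp2, Angptl1 and Col8a1 (0.28 each), for Axin2 Irs1 (0.29), Ndufs1 (0.29) and D130017N08Rik (0.28), and for Lef1 Stat5a (0.33), Sucla2 (0.32) and Srsf9 (0.31). These are weak coefficients over 198 cells that share library and depth within a capture, and they are given as a description. The genes named were picked as the highest of 9420, and their coefficients varied between captures. For Wnt5a they ran from -0.12 to 0.82 with Sema3a, 0.17 to 0.45 with Lap3 and 0.07 to 0.81 with Ssna1.

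The second question was how the members were divided between kinds of cells. Mural cells are named here by Rgs5 RNA. The study counted RGS5-stained cells of PWD12 wounds among the fibroblasts and found most of them outside blood vessels. Mural cells had lower mean levels of Sfrp1, Sfrp2 and Dkk3 than matrix fibroblasts in every capture compared. Of these, Sfrp1 passed the test. In the 5 captures with at least 3 cells of both kinds, Sfrp1 was at 0.0589, 0.0157 and 0.108 FPKM in mural cells at PWD12, 0.0128 FPKM in PWD15 replicate 1 and 5.09 FPKM in PWD21 replicate 1. All of these were below the matrix fibroblasts of the same captures. The mural mean over captures was 1.06 FPKM with a median of 0.0589 FPKM, so it rested on PWD21 replicate 1. Elsewhere mural levels were near 0, so that hardly anything but a lower value could be found. The difference was -3.10 ± 0.67 (log2, SE), 8.59-fold on this scale, lower in 5 of 5 captures, with an adjusted p of 0.0497 (limma), and Sfrp1 was the 1 member of 9 tested that passed. Over all 13823 genes tested, 1.71% passed. How many of these genes were lower in mural cells in every capture was not counted, and their median difference was -0.22. The call is at the edge of the threshold, since the adjusted p ran from 0.0313 to 0.253 over the alternatives that kept the collagen-high mural cells described below, and leaving out any 1 of the 5 captures raised it above the threshold (0.0555 to 0.169).

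Sfrp2 in mural cells was at 2.121, 0.126 and 33.4 FPKM at PWD12, 35.2 FPKM in PWD15 replicate 1 and 86.8 FPKM in PWD21 replicate 1. Every value was below that of matrix fibroblasts of the capture, with a difference of -3.74 ± 0.84 and an adjusted p of 0.0565 (limma). Dkk3 was at 19.01, 15.99, 3.35, 20.9 and 21.4 FPKM in the same order, lower in 5 of 5 captures, by -1.75 ± 0.53 with an adjusted p of 0.154. Axin2 lay between 0.471 and 3.32 FPKM and was lower in 5 of 5 captures (-1.83 ± 0.62, adjusted p 0.204, limma). These 3 did not pass. The share of all genes that were lower in every capture was not counted, so this order cannot be read as particular to these members. Sfrp4 (-2.87 ± 1.21) and Dkk2 (-1.96 ± 0.79) did not pass either, and Sfrp4 was higher in mural cells in 1 capture, where matrix fibroblasts had it at 0. Sfrp4 averaged 0.468 FPKM in mural cells and entered the test only through matrix fibroblasts.

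Wnt5a was not lower in every capture. In mural cells it was at 43.1, 38.9 and 18.96 FPKM at PWD12, 21.6 FPKM in PWD15 replicate 1 and 64.7 FPKM in PWD21 replicate 1, with higher values than in matrix fibroblasts in 2 of 5 captures. The difference was -0.30 ± 0.49 with an adjusted p of 0.829 (limma), which does not show that the levels were alike. Pooled over captures, 56.1% of mural cells and 81.3% of matrix fibroblasts held it at 1 FPKM or more, and in the fit of shares the difference of -19.8 ± 5.59 percentage points did not pass (adjusted p 0.108, limma). Fzd1 ran from 1.66 to 129.6 FPKM in mural cells, and the highest value, in PWD21 replicate 1, rested on 1 cell at 825 FPKM, without which the mean was 30.3 FPKM (-1.43 ± 0.78, adjusted p 0.446). Wif1 was at 11.2 FPKM in mural cells of PWD12 replicate 3, from 2 of 14 cells with 1 at 140.1 FPKM, and listed at 0 in the other 4 captures.

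Mural cells did not pass the test for any of the 50 other pathway genes tested. The lowest adjusted p was 0.0843 (limma), for the Frizzled receptor Fzd4. It was at 10.6 ± 11.7 FPKM in mural cells and 0.570 ± 1.31 FPKM in matrix fibroblasts. Fzd4 thus entered the test only through mural cells, so that only a higher value could be found there.

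Levels in myeloid cells were mostly low. In the 4 captures with at least 3 myeloid cells, Wnt5a was at 0.647 FPKM in PWD12 replicate 2, 18.4 FPKM in PWD15 replicate 2, and 0 and 0.297 FPKM in the PWD21 captures. Sfrp2 was at 1.44, 40.7, 27.2 and 0 FPKM and Dkk3 at 0.656, 10.6, 0.382 and 0.363 FPKM in the same captures. All were below the matrix fibroblasts beside them, and these 3 of the 8 members tested passed, Wnt5a by -4.27 ± 1.14 (adjusted p 0.0481), Sfrp2 by -4.94 ± 1.12 (adjusted p 0.0317) and Dkk3 by -4.54 ± 1.07 (adjusted p 0.0349, limma). Over all 13059 genes 6.59% passed, 221 higher and 640 lower in myeloid cells, and the median difference of all genes was -0.9985. A lower value in myeloid cells was thus common among all genes. How many genes were lower in all 4 captures was not counted, so this direction cannot be read as particular to these members. Sfrp1 and Dkk2 averaged 0.102 and 0.01 FPKM in myeloid cells and entered the test only through matrix fibroblasts, and Wif1 and Lef1, low in both, were not tested, so that no median over the members is given. Sfrp1 and Dkk2 did not pass, and neither did Fzd1 (-1.82 ± 1.17), Axin2 (-2.53 ± 0.90) and Sfrp4 (-3.12 ± 1.24). Axin2 and Sfrp4 were at 6.55 and 4.98 FPKM in myeloid cells of PWD15 replicate 2. In the other captures compared they were at 0.01545 FPKM or less.

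The myeloid calls rest on few cells, 11, 4, 5 and 3 per capture. Leaving out PWD12 replicate 2, PWD21 replicate 1 or PWD21 replicate 2 ended all 3 calls, and leaving out PWD15 replicate 2 ended that of Sfrp2 (adjusted p 0.0513, limma). Of the other pathway genes, 5 of 44 passed. Ccn4, at 4.98 FPKM in myeloid cells, was lower there (-4.95, adjusted p 0.0305, limma). The receptor Fzd2 (-4.00, adjusted p 0.0252) and the R-spondin receptor Lgr5 (-3.62, adjusted p 0.0412) also passed. So did Znrf3, which removes Frizzled proteins from the surface (-3.34, adjusted p 0.0385), and the feedback inhibitor Nkd2 (-3.24, adjusted p 0.0496, limma). Fzd2, Lgr5, Znrf3 and Nkd2 averaged 0.0, 0.282, 0.181 and 0.190 FPKM in myeloid cells. They entered the test only through matrix fibroblasts, so that only a lower value could be found.

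**Figure D4:**
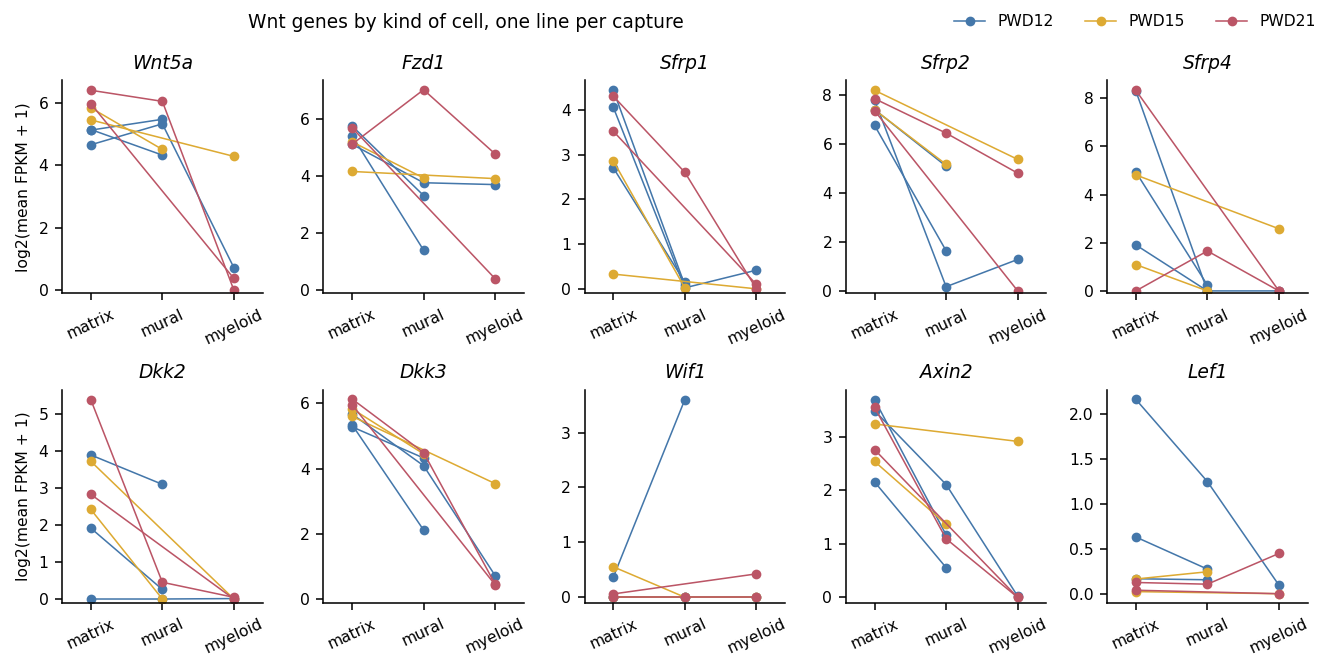
Log2(mean FPKM + 1) of each Wnt gene by kind of cell, with a line for each capture with at least 3 cells of the kind, coloured by day and with a separate axis for each gene. Sfrp1, Sfrp2, Dkk3 and Axin2 are lower in mural cells than in matrix fibroblasts in all 5 captures, and the share of all genes with this order was not counted. Wnt5a is higher in mural cells in 2 of 5 and is low in myeloid cells of 3 of 4 captures.

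Most of the Sfrp2 and Dkk3 signal of mural and myeloid cells lay in cells that also held collagen. Of the 57 mural cells, 19 had Col1a1 at 1000 FPKM or more, and these 19 also had a median of 8086 detected genes against 4834 in the other 38, with Pdgfra, a fibroblast receptor, at 1 FPKM or more in 11 of 19 against 2 of 38. Their median Rgs5 was 2433 FPKM against 8552 FPKM. Sfrp2 was at 1 FPKM or more in 12 of the 19 collagen-high mural cells and 3 of the 38 others, with means of 95.1 and 0.297 FPKM. Dkk3 was in 14 of 19 against 4 of 38, and Axin2 in 10 of 19 against 2 of 38. Sfrp1, Sfrp4, Dkk2 and Wif1 were in 3, 3, 5 and 2 of the 19 and in 0 of the 38, a count that allows a share of up to 7.89%. Wnt5a was in 15 of 19 and 17 of 38 cells, with means of 51.6 and 22.4 FPKM, and Fzd1 in 13 of 19 and 6 of 38. The mean of Fzd1 was higher in the collagen-low cells (28.61 against 23.03 FPKM), where a single cell reached 825 FPKM. Lef1 was in 1 of 19 and 2 of 38 cells, so that its share was the same in both.

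Of the 26 myeloid cells, 4 had Col1a1 at 1000 FPKM or more. Dkk3 reached 1 FPKM in all 4 of these and in 0 of the other 22, and Wnt5a in 3 of 4 and 0 of 22, a count that allows a share of up to 13.6%. Sfrp2 was in 3 of 4 with a mean of 74.2 FPKM and in 3 of 22 with a mean of 0.818 FPKM. Sfrp1, Wif1 and Lef1 went the other way, each in 0 of 4 and 1 of 22 cells. Why these cells held genes of both kinds was not tested.

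**Figure D5:**
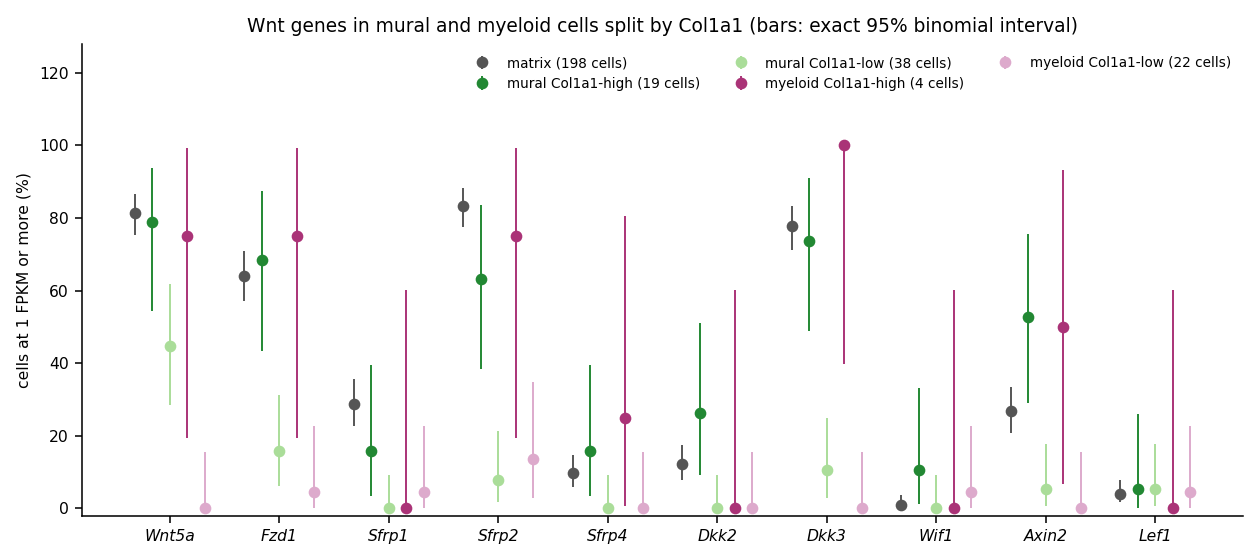
Share of cells with each Wnt gene at 1 FPKM or more, with exact 95% binomial intervals that cover counting error only, for matrix fibroblasts and for mural and myeloid cells with Col1a1 at 1000 FPKM or more (high) or below (low). Sfrp2, Dkk3 and Axin2 are frequent in collagen-high mural cells and rare in collagen-low ones, while Wnt5a reaches 44.7% of the latter.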

How the data were processed

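Single-cell RNA of sorted tdTomato-high wound cells was used from 7 C1 captures (3 of PWD12, 2 of PWD15, 2 of PWD21). The deposited values are FPKM, which the authors computed with RSEM and Bowtie 1.0.0 on mm10 and GENCODE release 13. Gene names and positions came from GENCODE release 21, which held 50376 of 50600 identifiers. RSEM shares reads between genes of similar sequence, and fragment counts were not given, so count models were not run. Depth per cell was inferred from the spacing of low FPKM in 9426 genes with 1 transcript (1000 bp or longer, fragments taken as 300 bp), a step that was tested on simulated data. The limits (at least 159000 fragments, at most 11000 genes and at most 15% mitochondrial) take their values from the study, which applied them to aligned reads and counts. Here they were applied to the inferred depth and to shares of FPKM, so the cells kept need not be the same. They left out 75 of the 367 cells. No 2 cells had identical values.

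FPKM were averaged over the cells of a kind in a capture (at least 3 cells), and log2(mean + 1) was fitted with limma 3.58.1 (R 4.3.3) with a variance trend, over genes that averaged 1 FPKM or more. The pseudocount of 1 understates changes of low genes. P-values are two-sided and adjusted over all genes by Benjamini and Hochberg, with 0.05 as the threshold. Days were compared over the 7 captures, and kinds with the capture as a block. Same-numbered captures of different days had correlations of at most 0.025 in their deviations from the day means. The main fit of the days used no block on the number. Where a day has 2 captures their deviations mirror each other, so this check cannot exclude shared mice or batches. The fit was tested on simulated data with 200 genes changed. At a change of 2 on the log2 scale it recovered 0% of them between days, 0.5% for mural and 0% for myeloid cells. At a change of 4 it recovered 36.5% to 46%, 55.5% and 4%. A share of 0 of N cells allows up to 3 divided by N. The named genes are the 10 members, genes of the pathway list that passed or led their role, the 3 genes most alike to each member, and the markers. Fzd4 and some other pathway genes were chosen after their values were seen. Members and lists were chosen with earlier results of these data known. Python 3.11.15 with numpy 2.4.6, pandas 2.3.3, scipy 1.17.1 and matplotlib was used. Alternatives were the pseudocount, the filter, all cells, the mean of log2 values, TPM, the trend, the kind limits, the block and each capture left out. Testing shares of cells and leaving out collagen-high cells were added after the data were seen. Entries without a promoter in the table are named only.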

Additional observations from a re-analysis of the deposited data

Results flagged for a closer look

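In 3 of 20 sets of differences per capture 1 capture lay far from the others, and this was not set against chance. In the sets of Wif1 most captures had a difference of 0, so that any other value stood out. The difference of mural cells from matrix fibroblasts for Wif1 was 3.24 on the log2 scale in PWD12 replicate 3, against -0.55 to 0 in the other 4 captures, and it rests on 2 of 14 cells. For myeloid cells, Wif1 differed by 0.37 in PWD21 replicate 2 and by 0 in the other 3 captures, and Lef1 by -2.07 in PWD12 replicate 2 against -0.04 to 0.32 in the others. For Dkk2 the difference of myeloid cells from matrix fibroblasts was 0.01 in the 1 PWD12 capture, where matrix fibroblasts had it at 0, and -3.96 on average in the 3 later ones. The later days differed from PWD12 by -3.97, and this was not tested. The 11 kept cells that met no kind limit were used in no comparison. In them Dkk3 was at 1 FPKM or more in 7 cells, Wnt5a in 6, Fzd1 in 5 and Sfrp2 in 4.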

How the results depend on the processing

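The members called between days stayed at 0 in each of the 3 comparisons under all 19 alternatives, replicate block included, although over all genes PWD21 against PWD12 moved from 1 call to 0 (replicate block) and up to 15 (mean of log2 values). In mural cells the 1 member called became 0 with a pseudocount of 0.1, with no filter on low values and with no variance trend, 2 with all cells, with doubled kind limits and with shares of cells, 3 with the mean of log2 values and 4 in collagen-low cells. In myeloid cells the 3 called became 1 with a pseudocount of 10, with all cells and with shares of cells, 0 with no filter and 5 in collagen-low cells. Leaving out each capture left 0 to 0 members in mural and 0 to 2 in myeloid cells. The calls over all genes moved from 236 to between 19 (no filter) and 596 (collagen-low cells) in mural cells, with 90 without the trend, 380 for shares and 531 for the mean of log2 values. In myeloid cells they moved from 861 (221 higher, 640 lower) to 31 with no filter, 183 (113 higher, 70 lower) with a pseudocount of 10, 485 (204 higher, 281 lower) with all cells, 237 for shares, 1360 in collagen-low cells and 1365 (223 higher, 1142 lower) as TPM, where the median of all genes was -1.20. The calls of Sfrp1, Sfrp2, Dkk3 and Wnt5a in the kinds thus depend on these settings (leaving out collagen-high cells removed cells already seen to hold several of these genes, so its higher counts are no support), while no member difference between kinds turned its sign; the cause was not tested.

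Of the member differences between days, 32 values over 10 differences turned their sign, none of them called. For PWD21 against PWD12, Fzd1 turned to 0.0106 with all cells, 0.0505 as TPM and 0.14 with the replicate block, Sfrp1 to -0.0141 with the mean of log2 values and -0.34 with the replicate block, and Sfrp2 to -0.046 with all cells and -0.40 with the mean of log2 values. Axin2 turned to -0.0050 with a pseudocount of 10, -0.0066 with the mean of log2 values, -0.01 with halved kind limits and -0.44 with the replicate block, and Sfrp4 to 0.0695 with a pseudocount of 10. Axin2 turned to 0.0789 for PWD15 against PWD12 and to -0.0855 for PWD21 against PWD15 with the mean of log2 values, and Sfrp4 for PWD21 against PWD15 to -0.0336 with a pseudocount of 0.1. With each capture left out, the differences of PWD21 from PWD12 ran from -0.32 to 0.26 for Fzd1, -0.34 to 0.57 for Sfrp1, -5.05 to 3.28 for Sfrp4 and -0.44 to 0.44 for Axin2. Those of PWD21 from PWD15 ran from -0.59 to 0.21 for Sfrp2, -2.95 to 5.38 for Sfrp4, -0.24 to 2.31 for Dkk2 and -0.13 to 0.66 for Axin2, and that of PWD15 from PWD12 from -0.70 to 0.13 for Axin2. Of the 90 detection shares under other limits, 41 moved by more than the SD between captures. Few captures and few myeloid cells limit these tests, and levels near 1 fragment cannot be told from 0.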
